A study of Mus musculus with 15 samples.

Results

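The S100 proteins described here are 9 genes, S100a1, S100a4, S100a6, S100a8, S100a9, S100a10, S100a11, S100a13 and S100b, of which 8 are among the 18193 genes with a probe set of their own on the arrays. They were selected on earlier results of these same arrays, so their values are given as a description. Where the text says on which side of the thresholds of the all-gene model they lay, this describes them and is no test of them. All probe sets annotated to these symbols were taken. Of the 9 genes, 8 had probe sets of their own, 12 in all. S100a11 had 1 probe set (1460351_at), which the array annotation assigns to S100a11, the pseudogene S100a11-ps and Gm12854 together. It was therefore kept out of the gene-level model and is called the shared S100a11 probe set.

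RNA of mouse cells was measured on Affymetrix arrays in 5 groups of 3 arrays each, and expression values are on the log2 scale. Mesenchymal stromal cells (MSC) were grown in low-glucose DMEM with 10% serum. HD28 cells were MSC taken through a hepatogenic protocol: hepatocyte growth factor (20 ng/ml), basic fibroblast growth factor (10 ng/ml) and nicotinamide (0.61 g/L) for 7 days, then oncostatin M (20 ng/ml), dexamethasone (1 µmol/L) and an ITS+ premix. The dHD28 cells were HD28 cells put back into MSC medium. MLC were primary hepatocytes moved to MSC medium with human TGF-β1 at 10 ng/ml to day 7, 5 ng/ml to day 14 and 1 ng/ml to day 28, and then kept in MSC medium without it. The Hepatocyte group was primary hepatocytes in DMEM/F12 with 10% serum. The labels give no strain, and no time for the second hepatogenic step or for the return of HD28 cells. Nothing in them says whether the replicates of a group are separate cultures or animals, and a p-value here measures only how far these samples spread, which may be technical. The series title names the reversibility of hepatogenic differentiation, and both dHD28 and MLC ended in MSC medium, to which HD28 cells were brought back and hepatocytes were moved.

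S100 proteins are small calcium sensors with a pair of EF-hands that mostly work as dimers. On binding calcium they expose a surface that docks onto target proteins such as annexins, myosin and cytoskeletal scaffolds. Several are also released from cells, and act there on receptors such as RAGE (Ager) and TLR4. S100A4 is widely used as a marker of fibroblasts and mesenchymal cells, and S100A8 with S100A9 form calprotectin, an abundant cytosolic complex of neutrophils.

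In the RefSeq annotation of GRCm38.p6, 8 of the 9 genes lie on mouse chromosome 3 and S100b on chromosome 10. S100a1 and S100a13 are direct neighbours, as are S100a8 and S100a9, and S100a11 and S100a10. S100a4 and S100a6 have 1 protein-coding gene between them, S100a5. Promoter windows of 250 bases before to 50 bases after the start were present for 8 of the 9 genes, with S100a10 the exception. The 4 windows below are shown because they belong to the divergent pair with unlike levels (S100a1 and S100a13) and to the genes with the largest differences (S100a4 and S100a6). Capitals mark the motif matches found, and all sequences are RefSeq's, written 5′ to 3′ on the gene's strand.
S100a1, chr3:90514281-90514580, minus strand: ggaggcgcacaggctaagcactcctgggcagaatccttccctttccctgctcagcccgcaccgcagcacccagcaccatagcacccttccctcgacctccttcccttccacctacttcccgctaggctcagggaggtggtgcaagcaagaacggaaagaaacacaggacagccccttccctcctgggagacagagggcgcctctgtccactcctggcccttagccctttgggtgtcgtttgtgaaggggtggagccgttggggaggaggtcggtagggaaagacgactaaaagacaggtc
S100a13, chr3:90514185-90514484, plus strand: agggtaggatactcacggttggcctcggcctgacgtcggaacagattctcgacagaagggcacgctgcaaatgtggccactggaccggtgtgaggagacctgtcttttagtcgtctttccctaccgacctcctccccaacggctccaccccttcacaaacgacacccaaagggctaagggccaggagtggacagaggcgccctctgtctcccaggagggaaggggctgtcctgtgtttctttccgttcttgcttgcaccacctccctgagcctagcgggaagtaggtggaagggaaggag
S100a4, chr3:90603520-90603819, plus strand: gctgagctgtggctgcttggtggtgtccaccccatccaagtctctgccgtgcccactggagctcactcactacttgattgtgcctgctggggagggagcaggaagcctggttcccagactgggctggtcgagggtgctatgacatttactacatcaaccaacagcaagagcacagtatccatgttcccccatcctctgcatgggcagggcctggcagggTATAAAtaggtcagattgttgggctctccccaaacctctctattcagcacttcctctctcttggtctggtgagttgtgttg
S100a6, chr3:90612644-90612943, plus strand: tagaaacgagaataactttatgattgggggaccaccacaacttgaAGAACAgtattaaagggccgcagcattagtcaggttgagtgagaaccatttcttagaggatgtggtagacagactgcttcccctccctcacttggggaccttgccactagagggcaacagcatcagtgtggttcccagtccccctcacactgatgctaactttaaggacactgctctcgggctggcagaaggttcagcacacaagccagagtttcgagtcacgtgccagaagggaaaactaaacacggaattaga

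The windows of S100a1 and S100a13 share 204 bases on opposite strands, and both genes are transcribed away from this stretch. Their GC contents were 61% and 59.3%, against a median of 52.7% over all windows. Of 6 motifs searched on both strands, neither window held any. The TATA box (TATAAA, present in 13.6% of 32851 windows) was found in S100a4 with its first base at -31 from the start, in S100a8 at -30 and in S100a9 at 1. The glucocorticoid receptor hexamer AGAACA, found in 19% of windows, was in S100a6 at -205. The C/EBP motif TTGCNNAA (10.8% of windows) was in S100a9 at -236, and the AP-1 motif TGANTCA (7.81%) was at 2 positions of S100a11, -136 and -38. The NF-kB motif and the CArG box were each found in 1.63% of windows and in none of these 8, and S100b held none of the 6. A match is a run of letters and does not show binding. No binding or methylation was measured here.

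The labels were compared with cell type markers. Stromal markers (10 of 11 measured) had a mean between 9.76 and 10.05 in the 12 arrays outside the Hepatocyte group, and hepatocyte markers (9 of 10 measured) had a mean between 12.85 and 13.06 in the Hepatocyte arrays. HD28 replicate 3 stood apart: its hepatocyte markers averaged 11.57, with Alb at 13.80, while Alb was 3.38 and 3.74 in the other HD28 arrays. Its macrophage and Kupffer cell markers averaged 5.48, against 4.39 and 4.63 in HD28 replicates 1 and 2. Its liver endothelial markers averaged 4.93, against 3.78 and 4.17. Hepatocyte replicate 2 stood apart in S100a6 and is described with that gene. Poly-A spike-in signal was high in 6 arrays and low in 9, with both classes in every group. The 3′ minus 5′ difference of the actin control probe sets, a sign of RNA quality, was 0.66 to 1.24 in Hepatocyte arrays and 0.94 in HD28 replicate 3, against 0.08 to 0.44 in the other 11 arrays. It moves with the Hepatocyte group, and its part in the differences from hepatocytes was not tested.

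The largest differences among the S100 genes lay between hepatocytes and every other group. A gene is called where it differed by a fold of 2 or more and the model across all genes gave it an adjusted p (Benjamini-Hochberg) under 0.05. In MLC against hepatocytes, S100a4, S100a6 and S100a10 were past these thresholds with higher values in MLC (3 of 8, where 18.4% of all genes were called higher), and S100a1 and S100a9 with lower ones (2 of 8, where 12.0% of all genes were called lower). In hepatocytes against MSC the same 5 genes were past the thresholds with the directions turned: 2 of 8 higher (11.8% of all genes) and 3 of 8 lower (18.3% of all genes). These comparisons share the Hepatocyte arrays. Between HD28 and MSC, 0 of 8 were called higher (3.24% of all genes) and 0 of 8 lower (3.52%), and 2 of 8 had an unadjusted limma p under 0.05, as 4354 of all genes did. Between dHD28 and HD28, 0 of 8 were called higher (4.63% of all genes) and S100a1 was called lower (1 of 8, where 4.19% of all genes were). For dHD28 against MSC and for MLC against MSC, limma called 0 genes of the whole table in either direction (0%). The unadjusted p was under 0.05 for 205 and 91 genes there, and for 0 of the 8 S100 genes. In the difference of MLC minus Hepatocyte less dHD28 minus HD28, 4 of 8 lay past the thresholds above 0 (13.8% of all genes) and S100a9 below 0 (1 of 8, where 9.96% of all genes did). Because the selection used these contrasts, nothing is read from these counts. The split of all calls depended on the scaling. It was 3353 higher and 2188 lower for MLC against hepatocytes, and 1786 and 6311 after centring each array on housekeeping genes (median over all genes -0.79, against -0.06). For hepatocytes against MSC it was 2149 higher and 3327 lower, and 5255 and 1844 after that centring (median 0.71). For HD28 against MSC 590 higher and 641 lower became 712 and 477, and for dHD28 against HD28 843 and 762 became 585 and 1000. The housekeeping genes themselves had an unadjusted limma p under 0.05 in 8 of 8 for MLC against hepatocytes (9652 of all genes did). For hepatocytes against MSC this held for 7 of 8 (9249 of all genes). Centring on them is thus no neutral scaling for these comparisons.

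**Figure D1:**
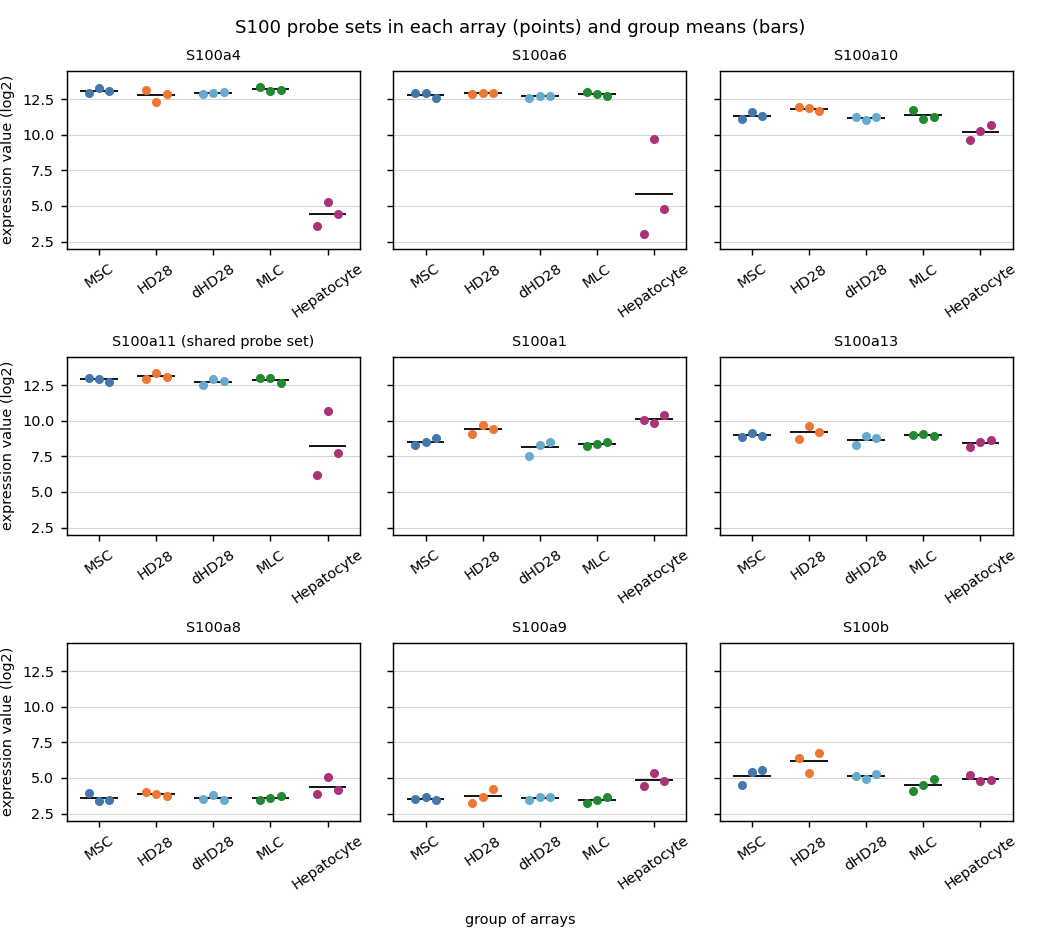
Expression value (log2) of the 8 genes and of the shared S100a11 probe set in every array (points), by group, with group means as bars. S100a4, S100a6 and the shared S100a11 probe set sit above 12 in all 12 arrays of MSC, HD28, dHD28 and MLC and lie lower in the 3 Hepatocyte arrays, while S100a1 is highest in hepatocytes and next highest in HD28.

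S100a4 (probe set 1424542_at) encodes the metastasin or fibroblast-specific protein, which binds nonmuscle myosin IIA and promotes motility. Its value was 12.92, 13.28 and 13.10 in MSC, 13.17, 12.27 and 12.84 in HD28 and 12.88, 12.94 and 13.02 in dHD28. In MLC it was 13.39, 13.05 and 13.16, and in hepatocytes 3.62, 5.25 and 4.45. Every array outside the Hepatocyte group thus lay more than 7 log2 units above every Hepatocyte array, and the other 4 groups overlapped along the whole order of their means. The difference of MLC minus Hepatocyte was 8.76 ± 0.32 (SE of the model), and that of Hepatocyte minus MSC was -8.66 ± 0.32. The value in Hepatocyte replicate 1 lay below the lower quartile of its array (3.70), so no fold is given. In a bulk sample fewer expressing cells and less RNA per cell cannot be told apart. HD28 minus MSC was -0.34 ± 0.32 and dHD28 minus HD28 was 0.19 ± 0.32, so no difference beyond the spread was seen along the hepatogenic protocol or on return. In HD28 replicate 3, the array with high hepatocyte markers, S100a4 was 12.84, between the other HD28 arrays.

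S100a6 (1421375_a_at) encodes calcyclin, which binds annexins and the calcyclin-binding protein CACYBP. It stood at 12.91, 12.93 and 12.61 in MSC, 12.86, 12.96 and 12.94 in HD28 and 12.59, 12.73 and 12.73 in dHD28. In MLC it was 12.99, 12.87 and 12.74. The Hepatocyte arrays had 3.05, 9.70 and 4.76, all below the other groups but spread over more than 6 log2 units. The value of 3.05 lay below the lower quartile of its array, so no fold is given here either. MLC minus Hepatocyte was 7.03 ± 1.11, 8.96 without Hepatocyte replicate 2 and 5.63 without Hepatocyte replicate 1. Hepatocyte minus MSC was -6.98 ± 1.11, and -8.91 or -5.58 without these arrays. All dHD28 arrays lay below all HD28 arrays, by a mean of -0.24 ± 1.11, where the error is set by the Hepatocyte arrays through the pooled spread. The order of the means was HD28, MLC, MSC and dHD28, and each of these neighbours overlapped.

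The shared S100a11 probe set had the same pattern as S100a6. S100A11, or calgizzarin, binds annexin A1 and takes part in membrane repair. The values were 13.01, 12.93 and 12.75 in MSC, 12.96, 13.37 and 13.08 in HD28, 12.51, 12.96 and 12.76 in dHD28 and 12.99, 12.999 and 12.65 in MLC. Hepatocytes had 6.20, 10.68 and 7.72, below all other arrays. MLC minus Hepatocyte was 4.68 ± 0.75 in the model of single probe sets, and the difference of the means was 5.92 without Hepatocyte replicate 2 and 3.68 without Hepatocyte replicate 1. Which of the 3 annotated symbols carried the signal cannot be told from this probe set. Over the 15 arrays its Pearson correlation with S100a6 was 0.997, as a description in which the points share groups and arrays.

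In Hepatocyte replicate 2, S100a6 was 5.80 log2 units above the mean of the other Hepatocyte arrays and the shared S100a11 probe set 3.72 above it. Other genes moved with them: vimentin (Vim, itself on the stromal list) was 4.58 units above and annexin A2 (Anxa2) 3.56 above, while S100a4 was 1.21, collagen Col1a1 0.88 and the stromal marker Thy1 0.19 above. S100a1 was 0.33 lower than in the other 2 arrays (difference -0.33), and Alb was at 14.10, against 14.11 and 14.15. The mean of the stromal markers was 4.86, 6.65 and 6.06 in Hepatocyte replicates 1, 2 and 3. Cholangiocyte markers (5 of 6 measured) averaged 4.98, 6.05 and 5.03, liver endothelial markers (7 of 7) 5.91, 6.97 and 7.14, and macrophage and Kupffer cell markers (15 of 15) 5.91, 7.28 and 7.61. The replicate with the highest S100a6 thus had the highest mean of stromal and cholangiocyte markers but not of endothelial or macrophage markers. Not every stromal marker was highest there. Vim and Col1a1 were, while Pdgfrb was 5.32, against 6.06 in replicate 3, and Thy1 4.76, against 4.92 in replicate 1. The part of other cell types in the S100a6 level of replicate 2 was not tested.

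**Figure D2:**
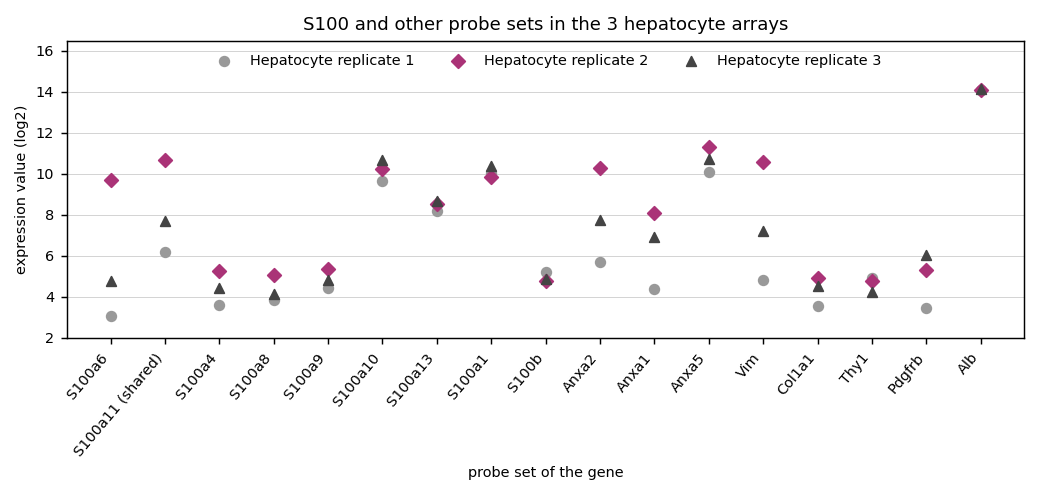
Expression value (log2) of the S100 genes, the shared S100a11 probe set and genes for comparison in the 3 Hepatocyte arrays, 1 symbol per replicate. Replicate 2 is far above the others in S100a6 (9.70), the shared S100a11 probe set (10.68), Anxa2 (10.28) and Vim (10.60), while Alb is near 14.1 in all 3.

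S100a10 (1416762_at) encodes p11, the partner of annexin A2, a member of the family that no longer binds calcium and carries plasminogen at the cell surface. Its value was 11.07, 11.60 and 11.33 in MSC, 11.95, 11.86 and 11.66 in HD28 and 11.21, 11.05 and 11.27 in dHD28. In MLC it was 11.76, 11.09 and 11.22, and in hepatocytes 9.65, 10.24 and 10.70. All HD28 arrays lay above all MSC arrays (0.49 ± 0.25) and all dHD28 arrays below all HD28 arrays (-0.64 ± 0.25), so that the value in HD28 was highest, and neither difference reached a fold of 2. On the second probe set HD28 and MSC overlapped (0.35 ± 0.31). MLC minus Hepatocyte was 1.16 ± 0.25 and Hepatocyte minus MSC -1.14 ± 0.25, both with no overlap between arrays. That second probe set (1456642_x_at) gave 1.49 ± 0.31 and -1.58 ± 0.31 for these, and a dim one (1439348_at), between 3.70 and 7.80 on all arrays, gave 1.43 ± 0.62 and -1.65 ± 0.62. The difference from hepatocytes was thus small beside those of S100a4 and S100a6, each taken on its own probe set. With each array centred on housekeeping genes, MLC minus Hepatocyte was 0.43 and no longer past the thresholds.

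Genes of the plasminogen system at the cell surface moved both ways. Of 9 listed genes, 7 were measured. Against hepatocytes, 3 rose in MLC (18.4% of all genes did) and 2 fell (12.0% of all genes), with a list median of 0.19 against -0.06 over all genes. The plasminogen receptor gene Plgrkt rose by 3.64 ± 0.20 (adjusted p = 2.5e-08, limma) and averaged 9.50 ± 0.11 in MLC and 5.87 ± 0.42 in hepatocytes (SD, n = 3 each). Tissue plasminogen activator (Plat) rose by 1.96 ± 0.47 (adjusted p = 0.0037) and the urokinase receptor (Plaur) by 1.79 ± 0.49 (adjusted p = 0.0082). Plasminogen itself (Plg), a liver product, was lower by 8.68 log2 units in MLC (-8.68 ± 1.28, adjusted p = 8.1e-05), and the plasmin inhibitor Serpinf2 was at -6.11 ± 0.70 (adjusted p = 8.8e-06). Without Hepatocyte replicate 2 Plat was at 2.58 and Plaur at 2.42, and Plaur was at 1.07 without Hepatocyte replicate 3. The Plat call was lost with the mean of all probe sets and when just the low spike-in arrays were kept. The Plaur call was lost with those arrays and with centring on housekeeping genes, which turned the list median to -0.54. The median over all genes fell too under that centring and lay below that of the list. In HD28 against MSC, Plaur fell (-2.02 ± 0.49, adjusted p = 0.018), and in dHD28 against HD28 it rose by 2.35 ± 0.49 (adjusted p = 0.0062) while Plat fell (-2.27 ± 0.47, adjusted p = 0.0064). With only arrays of low spike-in signal these 3 calls were lost, and the Plaur call in HD28 also without MSC replicate 1 (-1.90) or HD28 replicate 2 (-1.81). The annexin A2 gene Anxa2 averaged 12.58 ± 0.14 in HD28 and 12.75 ± 0.06 in MSC, a difference of -0.18 ± 0.75 (adjusted p = 0.92).

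S100a1 was higher in hepatocytes than in any other group, and higher in HD28 than in MSC. S100A1 is best known in heart and skeletal muscle, where it binds the ryanodine receptor and the calcium pump of the sarcoplasmic reticulum. Its brighter probe set (1419814_s_at) had 8.29, 8.53 and 8.79 in MSC, 9.07, 9.73 and 9.40 in HD28 and 7.54, 8.31 and 8.52 in dHD28. In MLC it had 8.23, 8.34 and 8.53, and in hepatocytes 10.03, 9.87 and 10.37. No array of HD28 overlapped with MSC, dHD28, MLC or Hepatocyte, and MSC, MLC and dHD28 overlapped. HD28 minus MSC was 0.86 ± 0.25, dHD28 minus HD28 -1.28 ± 0.25, MLC minus Hepatocyte -1.73 ± 0.25 and Hepatocyte minus MSC 1.56 ± 0.25. Its other probe set (1417421_at) gave 0.82, -0.86, -1.20 and 1.27 for these comparisons, each ± 0.22, with HD28 and Hepatocyte arrays overlapping. That probe set does not reach a fold of 2 for dHD28 minus HD28. The call there was also lost without dHD28 replicate 1 (-0.98) and with low spike-in arrays alone (-1.21), a setting added after the data were seen. In HD28 replicate 3 S100a1 was 9.40, between the other HD28 arrays with low hepatocyte markers.

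S100a13 (1418704_at), whose start lies head to head with that of S100a1, moved little. S100A13 is needed for the release of FGF1 and interleukin 1α, proteins without a signal peptide, together with a form of synaptotagmin 1. It had 8.87, 9.15 and 8.96 in MSC, 8.70, 9.63 and 9.24 in HD28, 8.28, 8.92 and 8.81 in dHD28, 8.98, 9.04 and 8.95 in MLC and 8.18, 8.52 and 8.67 in hepatocytes. The Hepatocyte arrays lay below all MLC and all MSC arrays, with 0.53 ± 0.23 for MLC minus Hepatocyte and -0.54 ± 0.23 for Hepatocyte minus MSC. Both signs turned when arrays were centred on housekeeping genes, to -0.19 and 0.14. The pair transcribed from the shared stretch shown above thus differed in hepatocytes, where S100a1 was higher and S100a13 lower than in MSC by the deposited scaling, and S100a13 slightly higher after that centring. Over the 15 arrays their Pearson correlation was -0.035. Genes of proteins released with S100A13 were lower in MLC than in hepatocytes: Fgf1 averaged 2.90 ± 0.19 in MLC and 8.02 ± 0.96 in hepatocytes (-5.12 ± 0.45, adjusted p = 1e-06), and Syt1 4.81 ± 0.21 in MLC and 8.16 ± 0.65 in hepatocytes (-3.35 ± 0.34, adjusted p = 3.5e-06). Il1a was at -0.85 ± 0.18, under a fold of 2. The MLC mean of Fgf1 lay below the lower quartiles of the MLC arrays (3.47 to 3.52), so the size of its difference is uncertain.

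S100a8 (1419394_s_at) and S100a9 (1448756_at), the calprotectin genes, were dim in all groups, and S100a9 was somewhat higher in hepatocytes. S100a9 had 3.52, 3.68 and 3.42 in MSC, 3.24, 3.66 and 4.25 in HD28, 3.48, 3.65 and 3.68 in dHD28, 3.24, 3.44 and 3.66 in MLC and 4.43, 5.38 and 4.82 in hepatocytes. Every Hepatocyte array lay above every other array, and the other 4 groups overlapped. HD28 minus MSC was 0.18, and -0.09 without HD28 replicate 3. That array had high hepatocyte markers, and the highest macrophage and Kupffer cell markers and the highest S100a9 of its group. MLC minus Hepatocyte was -1.43 ± 0.26 and Hepatocyte minus MSC 1.34 ± 0.26. S100a8 had 3.92, 3.41 and 3.47 in MSC, 3.98, 3.88 and 3.72 in HD28, 3.52, 3.82 and 3.48 in dHD28, 3.45, 3.62 and 3.71 in MLC and 3.86, 5.05 and 4.16 in hepatocytes. Its Hepatocyte arrays overlapped with MSC, and Hepatocyte minus MSC was 0.75 ± 0.25, or 0.41 without Hepatocyte replicate 2. In MSC and MLC, 3 values of S100a8 and 4 of S100a9 were below the lower quartile of their array, as was 1 of S100a9 in HD28.

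Markers of cells that carry calprotectin were set beside this. Neutrophil markers (10 of 12 measured, Ly6g and Retnlg not among them) averaged 4.73 to 4.95 in Hepatocyte arrays, 4.66 to 4.70 in MSC, 4.37 to 4.72 in HD28, 4.31 to 4.73 in dHD28 and 4.49 to 4.72 in MLC. Their summed level, on the log2 scale, was 8.09 to 8.33 in hepatocytes, 8.11 to 8.13 in MSC, 7.76 to 8.12 in HD28, 7.71 to 8.14 in dHD28 and 7.92 to 8.16 in MLC. The summed macrophage and Kupffer cell markers were 10.17 to 12.03 in hepatocytes, against 8.61 to 8.83 in MSC, 8.94 to 9.73 in HD28, 8.43 to 8.72 in dHD28 and 8.42 to 8.72 in MLC. These markers were highest in hepatocytes, as was S100a9, and so were hepatocyte and liver endothelial markers. Within the Hepatocyte group the summed macrophage and Kupffer cell markers were 10.17, 11.62 and 12.03 in replicates 1, 2 and 3. S100a9 was there 4.43, 5.38 and 4.82. The part of any of these cells in the S100a9 level was not tested.

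S100b, best known from astrocytes and Schwann cells, was dim and had its highest mean in HD28. Its brighter probe set (1419383_at) had 4.48, 5.42 and 5.57 in MSC, 6.40, 5.34 and 6.78 in HD28, 5.16, 4.94 and 5.31 in dHD28, 4.07, 4.52 and 4.91 in MLC and 5.20, 4.80 and 4.87 in hepatocytes. HD28 replicates 1 and 3 lay above all MSC arrays and replicate 2 did not. HD28 minus MSC was 1.02 ± 0.36 and dHD28 minus HD28 -1.04 ± 0.36, with no overlap between dHD28 and HD28 arrays. Neither was called, while both were when the fit took spike-in class as a block, with only low spike-in arrays, and without HD28 replicate 2 (1.43 and -1.45). Without HD28 replicate 3 the values were 0.71 and -0.73, and without MSC replicate 1 the first was 0.68. The second probe set (1434342_at) gave 1.12 ± 0.58 and -1.50 ± 0.58, with overlap in both. Schwann and glial markers (5 of 7 measured) averaged 5.45 to 5.56 in HD28 and 5.58 to 5.85 in MSC, where S100b was lower. Cartilage markers (7 of 7), another class of cells known to carry S100b, averaged 6.04 to 6.31 in HD28, 5.19 to 5.86 in MSC and 5.16 to 5.59 in dHD28, with HD28 highest as for S100b. Within HD28, replicate 2 had the highest cartilage mean (6.31) and the lowest S100b (5.34). The part of such cells in S100b was not tested.

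**Figure D3:**
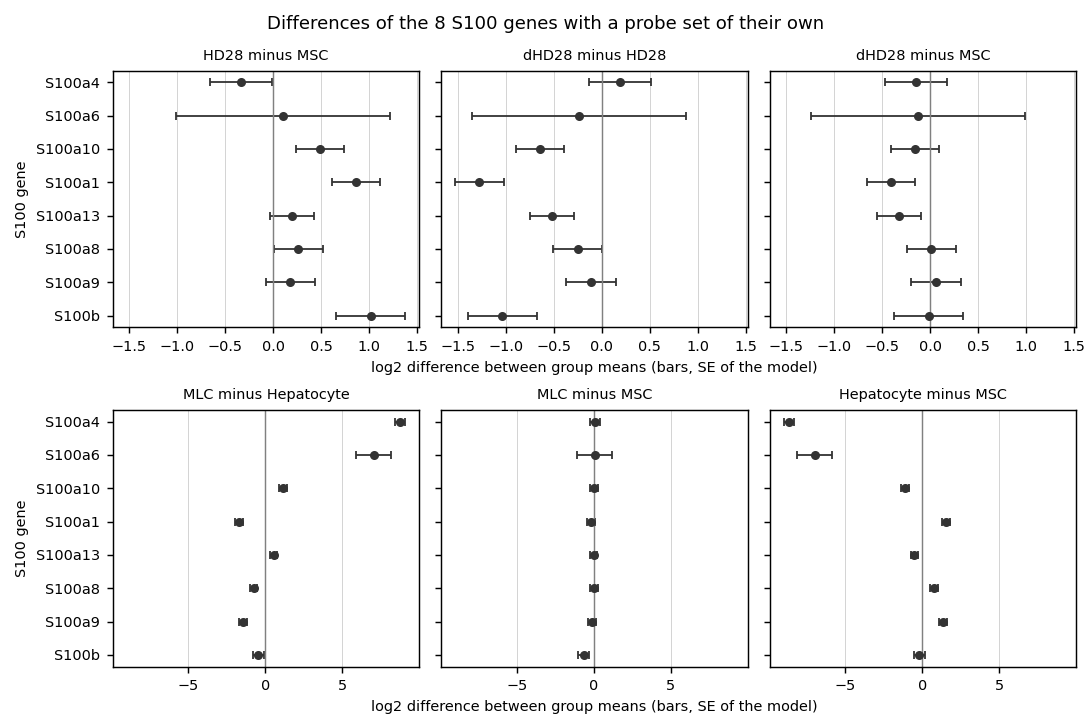
Log2 difference between group means of the 8 genes (points) with the SE of the model (bars), in 6 comparisons; the upper and lower rows have different scales. The lower row shows S100a4 at 8.76 and S100a6 at 7.03 in MLC minus Hepatocyte and values near 0 in MLC minus MSC, and the upper row shows S100a1 and S100b above 0 in HD28 minus MSC and below 0 in dHD28 minus HD28.

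In dHD28 and MLC, the groups that ended in MSC medium, the arrays did not separate from MSC arrays for any of the 8 S100 genes. Limma called 0 of all 18193 genes in either comparison (0%), so nothing particular to the S100 genes is read from this. For dHD28 minus MSC the 8 differences lay between -0.41 (S100a1) and 0.06 (S100a9), and the arrays overlapped for each gene. For MLC minus MSC they lay between -0.65 (S100b) and 0.10 (S100a4), again with overlap for each gene. The SE of these differences was 0.23 to 1.11. A call needs a fold of 2 and a difference well beyond its SE, so smaller differences could not have been called. For S100a6 the SE of 1.11 is set by the Hepatocyte arrays through the pooled spread and overstates the spread in these groups.

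Of the other S100 genes, 5 of 7 were measured (S100a7a and S100z were not), and they were tested in the model across all genes. S100a3, a gene of hair cuticle cells, averaged 3.54 ± 0.20 in HD28 and 4.79 ± 0.31 in MSC (SD, n = 3 each), and fell in HD28 (-1.26 ± 0.26, adjusted p = 0.007). It rose again by 1.08 ± 0.26 in dHD28 against HD28 (adjusted p = 0.014), a call lost without HD28 replicate 2, without dHD28 replicate 2, with array weights, with centring on housekeeping genes and with only low spike-in arrays. The HD28 mean of S100a3 lay close to the lower quartiles of the HD28 arrays (3.43 to 3.53), so the size of both differences is uncertain. S100a16, a widely expressed member, had 9.05, 10.00 and 9.41 in HD28 and 7.87, 8.97 and 8.77 in MSC, a difference of 0.95 ± 0.30 that did not pass (adjusted p = 0.065). In dHD28 it had 7.70, 7.83 and 8.26, below all HD28 arrays, and fell (-1.55 ± 0.30, adjusted p = 0.0041). Between MLC and hepatocytes S100a16 differed by -0.06 ± 0.30 (adjusted p = 0.89). S100a5, S100a14 and S100g were dim and passed in none of the 6 comparisons. Between MLC and hepatocytes 0 of the 5 were called by limma in either direction, where 18.4% of all genes were called higher and 12.0% lower. Of the 5, 1 had an unadjusted p under 0.05, S100a3 (0.67 ± 0.26, adjusted p = 0.045, under a fold of 2).

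Of 28 listed genes of intracellular S100 partners, 25 were measured. Among them 12 rose in MLC against hepatocytes (18.4% of all genes did) and 2 fell (12.0% of all genes), and the list median was 0.97 against -0.06 over all genes. Ahnak, a giant scaffold that binds the S100A10 and annexin A2 complex, averaged 11.69 ± 0.35 in MLC and 6.12 ± 2.08 in hepatocytes and rose by 5.58 ± 0.72 (adjusted p = 2.5e-05). Annexin A1 (Anxa1), a target of S100A11, averaged 12.04 ± 0.33 in MLC and 6.48 ± 1.90 in hepatocytes and rose by 5.57 ± 0.65 (adjusted p = 1e-05). Anxa2 rose by 4.82 ± 0.75 (adjusted p = 0.00013) and the actin scaffold Iqgap1 by 4.66 ± 0.48 (adjusted p = 3.5e-06). Without Hepatocyte replicate 2 the differences of Ahnak, Anxa1, Anxa2 and Iqgap1 were 6.42, 6.38, 6.001 and 5.33, and without Hepatocyte replicate 1 they were 4.41, 4.52, 3.71 and 3.96. In HD28 against MSC limma called 0 of 25 (7 had an unadjusted p under 0.05), where 3.24% of all genes were called higher and 3.52% lower. In dHD28 against HD28 the CACYBP gene rose by 1.25 ± 0.29 (adjusted p = 0.011) as 1 of 25, where 4.63% of all genes did. That call was lost without HD28 replicate 2, without dHD28 replicate 1 and in a fit of these arrays alone. With arrays centred on housekeeping genes, the partners called in MLC against hepatocytes were 5 higher and 4 lower. Over all genes the calls with that centring were mostly lower, as given above. Ahnak, Anxa1, Anxa2 and Iqgap1 kept their direction and call in each alternative tried.

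**Figure D4:**
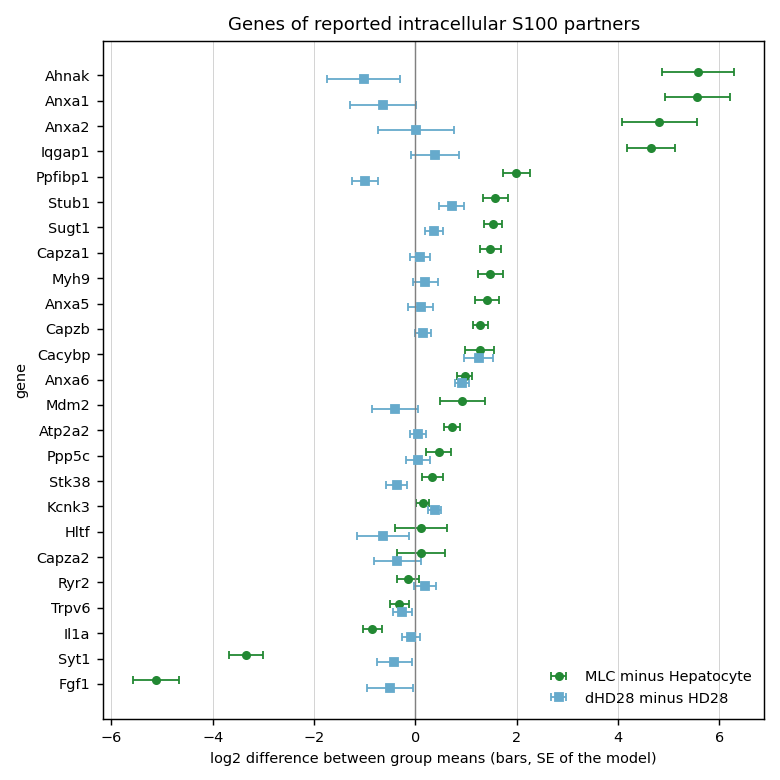
Log2 difference with the SE of the model for the 25 measured partner genes, in MLC minus Hepatocyte (circles) and in dHD28 minus HD28 (squares). Ahnak, Anxa1, Anxa2 and Iqgap1 lie between 4.66 and 5.58 in MLC minus Hepatocyte and Fgf1 and Syt1 below -3, whereas the dHD28 minus HD28 values lie between -1.02 and 1.25.

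Receptors and adaptors for extracellular S100 proteins were all measured (12 of 12). Of these, 3 rose (18.4% of all genes did) and 2 fell (12.0% of all genes) in MLC against hepatocytes, and the list median was 0.02, or -0.71 with arrays centred on housekeeping genes. With that centring the median over all genes was lower still. The fibroblast growth factor receptor Fgfr1 rose by 4.09 ± 0.49 (adjusted p = 1.4e-05), Tlr4 by 2.71 ± 0.66 (adjusted p = 0.004) and Nptn, a receptor reported for S100A8, by 1.72 ± 0.19 (adjusted p = 8.2e-06). The fatty acid receptor Cd36 fell (-5.86 ± 0.71, adjusted p = 1.5e-05), as did Alcam (-1.87 ± 0.59, adjusted p = 0.02). The Nptn call was lost with centring on housekeeping genes and with the mean of all probe sets, and the Alcam call without Hepatocyte replicate 2, MLC replicate 2 or MLC replicate 3 and with only low spike-in arrays. Without Hepatocyte replicate 1 Fgfr1 was at 3.31 and Cd36 at -6.45. Ager, the gene of RAGE, averaged 5.15 ± 0.17 in MLC and 5.24 ± 0.07 in hepatocytes, a difference of -0.08 ± 0.15 (adjusted p = 0.67). In HD28 against MSC, and in dHD28 against HD28, limma called 0 of 12, with 3 at an unadjusted p under 0.05 in each. Over all genes 3.24% were called higher and 3.52% lower in HD28 against MSC, and 4.63% and 4.19% in dHD28 against HD28.

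For each S100 gene the 3 genes outside the family with the most similar level over the 15 arrays were found by Pearson correlation, as a description, since arrays of a group are alike. For S100a4 these were the transcription factor Foxc1 (0.997) and the collagens Col5a2 (0.996) and Col1a1 (0.996). For S100a6 they were vimentin (0.996), Anxa2 (0.994) and the mitochondrial carrier Slc25a24 (0.992). S100a4 and S100a6 themselves correlated at 0.939, and differ in Hepatocyte replicate 2. For S100a1 they were Vkorc1 (0.977), Naxd (0.972) and Ube2l6 (0.965), and for S100a10 Masp1 (0.971), Sgce (0.968) and Plpp1 (0.963). For S100a9 they were Btnl9, Vnn3 and Gatm (0.965 each), and for S100a8 4933433G08Rik (0.914), Clec2h (0.907) and Csn3 (0.898). S100a13 was nearest to Zfp764 (0.901), Capns1 (0.898) and Crlf2 (0.887), and S100b to Ifi207 (0.882), Lamp1 (0.879) and Fam167a (0.866).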

How the data were processed

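The deposited table holds log2 expression values of 45101 probe sets on 15 arrays, made by the authors with RMA per the submitters' processing notes, which name no version. Base 2 was inferred from their range, 1.32 to 14.15, as no source states it. The number of arrays limits the precision. From these values, 34945 probe sets with exactly 1 gene symbol were used (932 had several, 9160 none, 64 were controls), with the probe set of the highest mean for each of 18193 genes. A model of 5 group means was fitted with limma 3.58.1 in R 4.3.3 (10 residual degrees of freedom), with Benjamini-Hochberg adjustment over all genes and two-sided p; it was tested on simulated data. Errors of differences are SE, those of means SD.

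The members and lists were chosen with earlier results of these data known. Genes were named by a rule: every S100 gene, up to 4 called genes of a list and the 3 most similar genes of each member. Iqgap1, Syt1, Il1a, Plaur, Nptn, Ager and Efhd2 fall outside it for MLC against hepatocytes and were named after their values were seen. Of 15 lists, 8 held cell type markers. Promoters are RefSeq's (GRCm38.p6), and the TATA box was added to the search after the sequences were seen. A comparison of S100 protein sequences was planned and was not analysed here. Same-number arrays had positively correlated deviations in each of 3 pairs for dHD28 and HD28 (0.32, 0.28 and 0.12). The same held for hepatocytes and MSC (0.25, 0.23 and 0.07), and in each other comparison the signs were mixed. The largest values were among these, with -0.21, -0.68 and 0.77 for MLC and MSC and -0.29, -0.64 and 0.69 for dHD28 and MSC. The main model used no pairing, and a block by replicate number over all groups was among the alternatives. Alternatives comprised probe set rules, scalings, model options, blocks and left-out arrays.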

Additional observations from a re-analysis of the deposited data

Results flagged for a closer look

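The move of hepatocytes into MSC medium (MLC minus Hepatocyte) and the return of HD28 cells to it (dHD28 minus HD28) were set side by side. For S100a6 and S100a10 all MLC arrays lay above all Hepatocyte arrays and all dHD28 arrays below all HD28 arrays. How many of all genes have this pattern was not counted. On the dim S100a10 probe set (1439348_at) dHD28 and HD28 arrays overlapped. S100a6 was 7.03 log2 units higher in MLC than in hepatocytes and stood at -0.24 ± 1.11 in dHD28 minus HD28, a difference of 7.26 ± 1.58 (SE). S100a10 had 1.16 and -0.64, a difference of 1.80 ± 0.35. These differences were not tested, because the genes were selected on these arrays.

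Genes outside the 9 were compared by the contrast of these 2 differences in limma, which called 2502 of 18193 genes higher (13.8%) and 1812 lower (9.96%). The genes named here were picked from the lists because they passed this contrast, so the p-values beside them are no independent support. S100a16 differed by 1.49 ± 0.43 (adjusted p = 0.018), having fallen in dHD28 against HD28 and stood at -0.06 in MLC against hepatocytes. Among partners, Ahnak differed by 6.60 ± 1.01 (adjusted p = 0.00034), Anxa1 by 6.20 ± 0.91 (adjusted p = 0.00026) and Anxa2 by 4.81 ± 1.06 (adjusted p = 0.0039). Fgf1 differed by -4.62 ± 0.64 (adjusted p = 0.00017). Among receptors, Fgfr1 differed by 5.02 ± 0.69 (adjusted p = 0.00017), Tlr4 by 3.64 ± 0.93 (adjusted p = 0.0097), Cd36 by -4.89 ± 1.00 (adjusted p = 0.0025) and Alcam by -3.65 ± 0.84 (adjusted p = 0.0051). The S100a16 call was lost with arrays centred on housekeeping genes (0.95), and the Tlr4 call with the mean of all probe sets (1.44). Without Hepatocyte replicate 2 Ahnak was at 7.44, Anxa1 at 7.02 and Anxa2 at 5.99, and without Hepatocyte replicate 1 they were at 5.44, 5.16 and 3.70, Fgfr1 at 4.24 and Cd36 at -5.49. Without HD28 replicate 3 Cd36 was at -5.99 and Alcam at -4.56, and without dHD28 replicate 2 Tlr4 was at 2.99. Calls were lost for S100a16, Anxa2, Cd36 and Alcam with only arrays of low spike-in signal.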

How the results depend on the processing

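Of the 30 alternatives, dropping the fold limit changes no value and is left out of the following count. Of 1617 values of the 8 S100 genes under the others, 1568 moved by less than 1 SD between replicates, 49 by more, and 0 of the called ones changed sign. Many of these values could not move. Leaving out an array outside a comparison, or changing only how the spread is estimated, leaves a difference of group means as it was. The count is thus no measure of stability. S100a1, S100a4, S100a6 and S100a9 lay past the thresholds in each alternative for MLC against hepatocytes and for hepatocytes against MSC, which describes genes selected on these arrays and is no support for them. The S100a10 calls were lost in both without Hepatocyte replicate 1 (0.88 and -0.86), with housekeeping centring (0.43 and -0.46) and with only low spike-in arrays, in the first without MLC replicate 1 and in the second with array weights. Without a fold limit the genes called were 1948 for HD28 against MSC (1231 with it), 2562 for dHD28 against HD28 (1605) and 8488 for MLC against hepatocytes (5541). With only low spike-in arrays, added after the data were seen as was the removal of HD28 replicate 3 with Hepatocyte replicate 2, HD28 against MSC had 789. With each array left out in turn, HD28 against MSC had 853 to 1256 and dHD28 against HD28 1162 to 1920. With the replicate block these had 1301 and 1691 and MLC against hepatocytes 5574; the block changed no count by over 1.5 times. The causes were not tested. Dim probe sets, S100a8 and S100a9 above all, limit what can be seen.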

Other observations

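Calcium-binding EF-hand genes outside the S100 family (24 of 29 measured) were also set beside them. Against hepatocytes, 8 rose (18.4% of all genes did) and 1 fell (12.0% of all genes) in MLC, with a list median of 0.46 against -0.06 over all genes. With arrays centred on housekeeping genes the list median was -0.26. That centring lowered the median over all genes as well, and the list median stayed above it. The matrix protein gene Sparc averaged 13.11 ± 0.11 in MLC and 8.30 ± 0.79 in hepatocytes (4.81 ± 0.29, adjusted p = 4.6e-08, limma). The reticulocalbins of the secretory pathway rose together: Rcn1 by 4.54 ± 0.52 (adjusted p = 8.6e-06), Rcn3 by 4.29 ± 0.26 (adjusted p = 6e-08) and Rcn2 by 3.37 ± 0.38 (adjusted p = 8.3e-06). Without Hepatocyte replicate 1 or 2 Rcn1 was at 3.87 or 5.14. The gene that fell was Efhd2 (-1.19 ± 0.40, adjusted p = 0.027), a call lost in 7 alternatives, among them without Hepatocyte replicate 2 or 3 and without MLC replicate 1 or 3. In HD28 against MSC the Golgi gene Sdf4 rose by 1.05 ± 0.17 (adjusted p = 0.0014), and it fell in dHD28 against HD28 (-1.09 ± 0.17, adjusted p = 0.00091). These calls were lost with the mean of all probe sets, the first also with array weights and without MSC replicate 2 or HD28 replicate 1, and the second without dHD28 replicate 1, each time with a fold under 2.

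Of 20 listed inflammatory genes that are often induced with calprotectin, 19 were measured. In HD28 against MSC 3 rose (3.24% of all genes did) and 1 fell (3.52% of all genes). These 4 calls dropped to 1 when MSC replicate 1 was left out and to 2 when replicate 2 of MSC, or replicate 2 or 3 of HD28, was. Cebpd averaged 11.05 ± 0.44 in HD28 and 8.20 ± 0.21 in MSC (2.86 ± 0.35, adjusted p = 0.00021). Lcn2 had 8.72, 8.74 and 10.87 in HD28 and 3.01, 3.37 and 5.72 in MSC (5.41 ± 1.36, adjusted p = 0.022), at 6.25 without MSC replicate 3 and with the call lost without HD28 replicate 3 (4.70), MSC replicate 1 or MSC replicate 2 and with only low spike-in arrays. Socs3 rose by 1.19 ± 0.31 (adjusted p = 0.025) and Ptges fell (-1.02 ± 0.28, adjusted p = 0.035). Both calls were lost under several left-out arrays: Socs3 without MSC replicate 1 or 3 or HD28 replicate 1 or 2, and Ptges without MSC replicate 1 or 2 or HD28 replicate 2 or 3. In dHD28 against HD28 Lcn2 (-6.28 ± 1.36), Saa3 (-5.95 ± 1.71), Cebpd (-2.43 ± 0.35) and Socs3 (-1.80 ± 0.31) fell (4 of 19, where 4.19% of all genes did) and Ptges rose by 1.18 ± 0.28 (1 of 19, where 4.63% did). Without HD28 replicate 3 Lcn2 was at -5.56 and Saa3 at -5.18, and Saa3 was at -7.24 without HD28 replicate 1. The Saa3 call was lost without HD28 replicate 2 or 3 and without any 1 dHD28 array, and the Ptges call without HD28 replicate 2 or dHD28 replicate 1 or 2. In MLC against hepatocytes 4 of 19 rose (18.4% of all genes) and 4 fell (12.0% of all genes), or 1 and 8 with arrays centred on housekeeping genes. That centring also made the calls over all genes mostly lower. Of the genes for fused-type S100 proteins of the skin, 5 of 7 were measured, and Tchh was called: it averaged 3.00 ± 0.05 in HD28 and 1.67 ± 0.07 in MSC (1.33 ± 0.12, adjusted p = 2.1e-05), near the lowest value of the table.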
